A study of Rattus norvegicus with 18 samples.

Results

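The miR-17~92 and miR-106b~25 clusters were examined by small RNA sequencing of the gastrocnemius of male Brown Norway rats. The 10 entries were taken from the count table by name: rno-miR-17-5p, rno-miR-18a-5p, rno-miR-19a-3p, rno-miR-20a-5p, rno-miR-19b-3p and rno-miR-92a-3p for miR-17~92, and rno-miR-106b-5p, rno-miR-106b-3p, rno-miR-93-5p and rno-miR-25-3p for miR-106b~25. The table holds 909 entries, of which 763 are known miRNAs and 146 are candidates that the study predicted. The rule sets no threshold on measured values. Young rats were 6 months old and fed ad libitum (young AL, replicates 1 to 6), the old AL rats (replicates 7 to 12) were 28 months old on the same free feeding, and those on caloric restriction (old CR, replicates 13 to 18) were also 28 months old. All rats were group-caged with free access to food until 2 months of age, when those assigned to CR went onto 55% of the daily intake of the controls. Each group has 6 libraries. Age was thus compared in fully fed rats, and diet in old rats only, since young rats on CR were not analysed here.

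The miR-17~92 cluster is a single primary transcript from which several miRNA hairpins are cut. It is induced by MYC and by E2F factors, is best known as an oncogenic cluster in lymphoma, and is required in development for the survival of B-cell progenitors and for growth of the heart and lung. The miR-106b~25 cluster is a paralogue that lies in an intron of Mcm7, a gene for a subunit of the DNA replication helicase. A miRNA recognises its targets chiefly through its seed, bases 2 to 8 from the 5′ end, so that members with the same seed share many targets. These include the cell cycle inhibitor p21, the pro-apoptotic BIM and the E2F factors themselves.

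The mature sequences are shown because the 10 members fall into 5 seeds that cut across the clusters. They are the RefSeq sequences listed with the rat assembly GRCr8, written 5′ to 3′ with the seed in capitals. The seed AAAGUGC is carried by 2 members of each cluster.
rno-miR-17-5p: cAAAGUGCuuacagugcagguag
rno-miR-20a-5p: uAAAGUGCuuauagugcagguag
rno-miR-93-5p: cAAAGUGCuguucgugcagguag
rno-miR-106b-5p: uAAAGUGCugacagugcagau
Counted from the 5′ end, rno-miR-20a-5p differs from rno-miR-17-5p by C1U and C12U. The seed of rno-miR-18a-5p is related to it but not the same.
rno-miR-18a-5p: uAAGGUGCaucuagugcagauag
The seed AUUGCAC is carried by 1 member of each cluster.
rno-miR-92a-3p: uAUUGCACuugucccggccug
rno-miR-25-3p: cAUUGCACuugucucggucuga
The miR-19 pair, which of these 2 clusters is found in miR-17~92 alone, differs by U11C.
rno-miR-19a-3p: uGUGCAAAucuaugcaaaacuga
rno-miR-19b-3p: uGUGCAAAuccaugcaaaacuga
The other arm of the miR-106b hairpin has a seed of its own.
rno-miR-106b-3p: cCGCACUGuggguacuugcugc

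In the RefSeq annotation, Mir17, Mir18a, Mir19a, Mir20a, Mir19b1 and Mir92a1 lie in that order on the plus strand of chromosome 15, and Mir106b, Mir93 and Mir25 lie on the minus strand of chromosome 12 within Mcm7. A further paralogous cluster lies on chromosome X. The mature rno-miR-17-5p, rno-miR-19b-3p and rno-miR-92a-3p are each produced by 2 genes, 1 on chromosome 15 and 1 on chromosome X, so that their counts cannot be divided between the clusters. How reads that match several miRNAs were counted is not given in the sources used here, and near-identical members such as rno-miR-17-5p and rno-miR-20a-5p are uncertain to that extent.

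The libraries held 34940346 to 83110905 counts. Levels are given as CPM (counts per 1e6 counts) scaled by trimmed mean of M-values (TMM) factors, which ran from 0.656 to 2.08. The labelled tissue was checked with its miRNAs: striated muscle rno-miR-1-3p, the most abundant of them, stood at 36983 CPM or more in every library. Several libraries stood apart. Old AL replicate 7 had the highest TMM factor, 2.08, and the highest level of rno-miR-499-5p, a miRNA of slow fibres, at 1142 CPM against 104 to 694 CPM elsewhere. Another such miRNA, rno-miR-208b-3p, also had its old AL maximum in replicate 7, at 31.4 CPM. Its highest value of all, 60.7 CPM, was in young AL replicate 4, the young AL library highest in rno-miR-499-5p, at 694 CPM. Old AL replicate 8 and old CR replicate 18 had 139 and 47.6 CPM of the leukocyte rno-miR-142-5p, against 4.00 to 13.8 CPM in the other 16 libraries. In the same 2 libraries rno-miR-142-3p was at 69.98 and 25.86 CPM, against at most 6.75 CPM elsewhere. There rno-miR-155-5p was at 79.83 and 32.41 CPM, against at most 12.15 CPM elsewhere. Not all leukocyte miRNAs set these libraries apart. rno-miR-223-3p was at 3.64 to 4.79 CPM over all old AL libraries and 2.20 to 4.80 CPM over all old CR libraries. rno-miR-150-5p was at 312 CPM in old AL replicate 8, and at 128 CPM in old CR replicate 18, within the 91.5 to 167 CPM of its group. Counts of tissue RNA do not tell fewer cells of a type from less RNA per cell.

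Together the 10 members made up 0.0259% to 0.0726% of the counts of a library, and all 10 were detected in every library. The order of levels, by the median over the 18 libraries, was rno-miR-25-3p at 166.6 CPM, rno-miR-92a-3p at 107 CPM, rno-miR-20a-5p at 34.2 CPM, rno-miR-93-5p at 30.7 CPM, rno-miR-106b-3p at 30.0 CPM, rno-miR-17-5p at 17.3 CPM, rno-miR-106b-5p at 9.41 CPM, rno-miR-19b-3p at 3.85 CPM, rno-miR-19a-3p at 0.685 CPM and rno-miR-18a-5p at 0.111 CPM. The AUUGCAC seed was therefore the most abundant of the 5 in this muscle, through 1 member of each cluster. Neighbours in this order were not always distinct. rno-miR-25-3p was above rno-miR-92a-3p in 16 of 18 libraries but their ranges overlapped in each group, and rno-miR-20a-5p, rno-miR-93-5p and rno-miR-106b-3p exchanged places from library to library. rno-miR-17-5p was above rno-miR-106b-5p in 17 of 18 libraries, with an overlap of ranges in young AL alone, and rno-miR-106b-5p was above rno-miR-19b-3p in 18 of 18 libraries, with overlapping ranges in each group. rno-miR-92a-3p was above rno-miR-20a-5p, rno-miR-106b-3p above rno-miR-17-5p, rno-miR-19b-3p above rno-miR-19a-3p, and rno-miR-19a-3p above rno-miR-18a-5p in 18 of 18 libraries, with no overlap of ranges in any group. The 6 members of miR-17~92 thus ranged from 107 to 0.111 CPM, with the copies of 3 of them on chromosome X included in the counts. Only 2 to 18 counts per library lay behind rno-miR-18a-5p, so its values carry a large counting error. That error may be larger than the counts show, because copies of a molecule made by PCR could not be told apart. The order is one of read counts, and differences between sequences in how readily they enter a library were not measured.

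**Figure D1:**
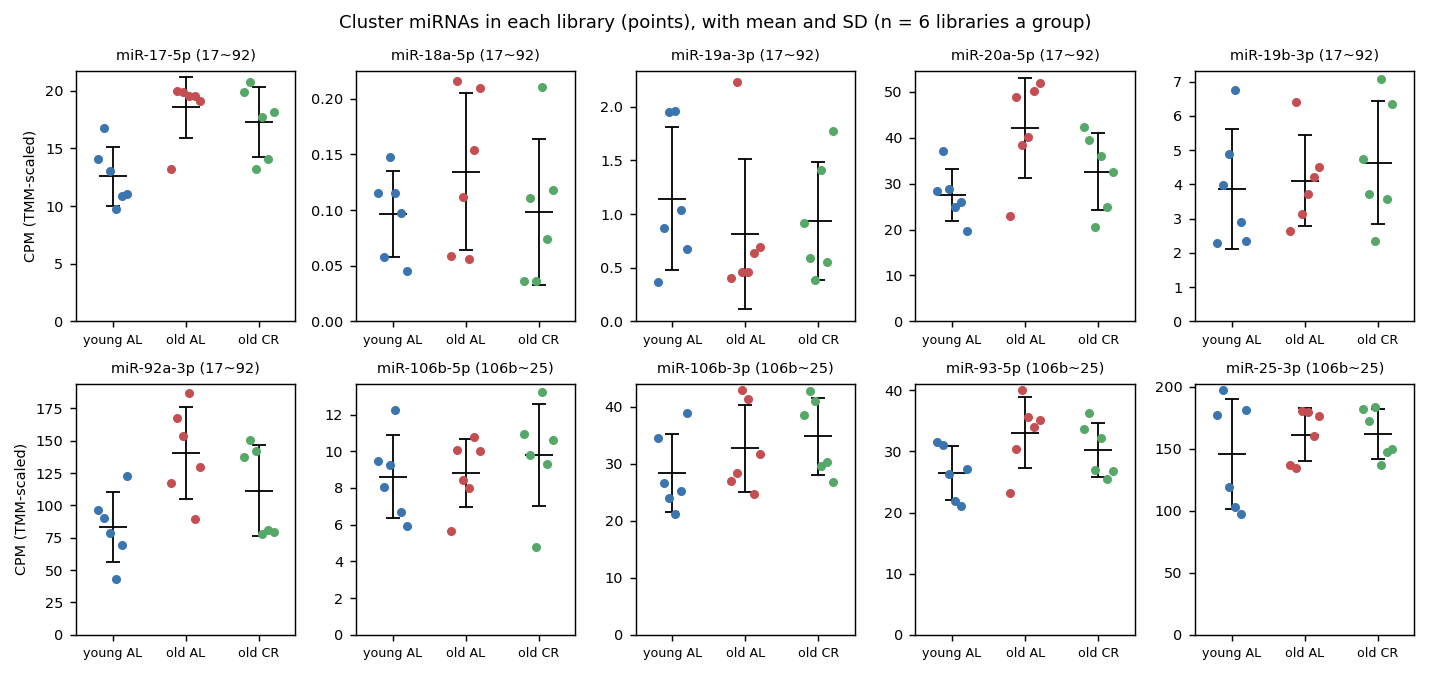
Level of each of the 10 cluster miRNAs in every library, in CPM scaled by TMM factors on a linear axis from 0. Points are libraries, 6 per group, and bars show the mean and SD. In the panels of miR-17-5p and miR-20a-5p, 5 of 6 old AL points lie above all young AL points and the remaining point, replicate 7, lies among them.

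The first comparison asked what differed with age in rats fed ad libitum. None of the 10 members was called by edgeR's quasi-likelihood test with an adjusted p (Benjamini-Hochberg over 732 entries) no higher than 0.05 and a difference of 1.5-fold or more, and 3 of 10 had an unadjusted p under 0.05, beside 171 of 732 entries in all. Over all entries 24 of 732 were called, 3.28%. The estimates of 9 of 10 members were above 0, beside 414 of 732 entries in all, with a median log2 fold change of 0.26 against 0.06 over all entries tested. DESeq2, the tool of the study, run with its defaults called 2 of 10, both higher in old AL, where it called 84 of 691 entries, 12.2%. The members with an unadjusted p under 0.05 were rno-miR-17-5p, rno-miR-20a-5p and rno-miR-92a-3p, all from miR-17~92, and their values are given first.

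rno-miR-17-5p, which represses p21 and BIM among other targets, was at 9.74 to 16.8 CPM in the young AL libraries (median 12.0), 13.3 to 19.9 CPM in the old AL libraries (median 19.6) and 13.3 to 20.8 CPM in the old CR libraries (median 18.0). Of the old AL libraries 5 of 6 lay between 19.1 and 19.9 CPM, above every young AL library, and replicate 7 lay at 13.3 CPM within the young range. The fold change of old AL over young AL was 1.47 (log2 0.56 ± 0.18 SE, 95% interval 1.12 to 1.94-fold, adjusted p = 0.108 in edgeR). DESeq2 gave an adjusted p of 0.00733 but a fold change of 1.47, under the threshold of 1.5.

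rno-miR-20a-5p shares the seed and most targets of rno-miR-17-5p and was counted about 2 times as often. It was at 19.7 to 37.1 CPM in the young AL libraries (median 27.2), 23.0 to 51.8 CPM in the old AL libraries (median 44.5) and 20.5 to 42.2 CPM in the old CR libraries (median 34.2). Again 5 of 6 old AL libraries were above every young AL library, and replicate 7, at 23.0 CPM, was not. The fold change with age was 1.53 (log2 0.62 ± 0.22 SE, 95% interval 1.10 to 2.15-fold, adjusted p = 0.142 in edgeR and 0.0392 in DESeq2, which called it). The paper also measured rno-miR-20a-5p by RT-qPCR and reported no significant difference between its groups. It described the trends of such miRNAs with age and CR as similar to those in sequencing. Its methods give a different age for the old group in that assay.

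Old AL replicate 7 stood apart in its TMM factor and in rno-miR-499-5p. On the TMM scale replicate 7 was also the lowest of its group for rno-miR-17-5p and rno-miR-20a-5p. Without it, edgeR called both members, with a log2 fold change of 0.64 and an adjusted p of 0.0498 for rno-miR-17-5p, and 0.74 and 0.0408 for rno-miR-20a-5p. In that setting 20 of 725 entries were called. Leaving out any other library gave no call. These fits used TMM factors, and the low place of replicate 7 belongs to that scale. It had 1348 counts of rno-miR-17-5p and 2339 of rno-miR-20a-5p among 48964459 counts. Old AL replicate 11 had 888 and 2280 among 69258438. Young AL replicate 2, with 1159 and 2565 among 74881378, was above old AL replicate 11 on library totals. With library totals no member was called, and the log2 fold changes with age were 0.64 and 0.65 (adjusted p = 0.24 and 0.198 in edgeR).

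rno-miR-92a-3p, known for its expression in endothelium and blood cells and as a repressor of vessel growth, was at 42.9 to 123 CPM in the young AL libraries (median 84.5), 89.6 to 187 CPM in the old AL libraries (median 142) and 78.3 to 150 CPM in the old CR libraries (median 109). It was higher than every young AL library in 4 of 6 old AL libraries. Young AL replicate 4 was the lowest of the 18 libraries. The fold change with age was 1.67 (log2 0.74 ± 0.26 SE, 95% interval 1.14 to 2.46-fold, adjusted p = 0.124 in edgeR and 0.0203 in DESeq2, which called it). Endothelial rno-miR-126a-3p and rno-miR-126a-5p had log2 fold changes of -0.35 and -0.16 with age. Leukocyte rno-miR-142-3p, rno-miR-142-5p, rno-miR-155-5p, rno-miR-223-3p and rno-miR-150-5p had 1.90, 2.25, 1.16, 0.40 and 0.15. Erythroid rno-miR-144-5p, rno-miR-451-5p and rno-miR-144-3p had 0.84, 0.25 and -0.36. None of these miRNAs was called by edgeR in old AL against young AL. Their part in the values of rno-miR-92a-3p was not tested.

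The summed level of the 6 members of miR-17~92, of which rno-miR-92a-3p made up 49.6% to 79.5% in a library, was 86.4 to 156.4 CPM in the young AL libraries (median 135), 156.9 to 251 CPM in the old AL libraries (median 211) and 124 to 215 CPM in the old CR libraries (median 160). On this scale the lowest old AL library, at 156.9 CPM, was just above the highest young AL library, at 156.4 CPM. The share of all entries, or of like sums, with separate ranges was not computed. The 3.28% of single entries called in this comparison is a different measure. Scaled by library totals alone the ranges met, with 91.9 to 197 CPM in the young AL libraries and 108 to 334 CPM in the old AL libraries. The sum of the 4 members of miR-106b~25 overlapped between the groups, at 151 to 263 CPM in the young AL, 193 to 272 CPM in the old AL and 212 to 265 CPM in the old CR libraries.

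Of the other members of the AAAGUGC seed, rno-miR-93-5p was at 21.1 to 31.5 CPM in the young AL libraries (median 26.7), 23.2 to 40.1 CPM in the old AL libraries (median 34.7) and 25.6 to 36.2 CPM in the old CR libraries (median 29.6). Its fold change with age was 1.25 (log2 0.32 ± 0.18 SE, adjusted p = 0.294 in edgeR), with 4 of 6 old AL libraries above every young AL library. rno-miR-106b-5p, with the same seed, was at 5.93 to 12.3 CPM in the young AL libraries, 5.66 to 10.8 CPM in the old AL libraries and 4.80 to 13.2 CPM in the old CR libraries. Its fold change with age was 1.03 (95% interval 0.75 to 1.42-fold, adjusted p = 0.945 in edgeR), and the groups overlapped almost fully. rno-miR-18a-5p, of the related seed, had 3 to 7 counts in young AL libraries and 4 to 18 in old AL, and the interval of its fold change ran from 0.71 to 2.67-fold.

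rno-miR-25-3p shares the seed of rno-miR-92a-3p and had the highest median level of the 10, with 97.7 to 197 CPM in the young AL libraries (median 148), 134 to 181 CPM in the old AL libraries (median 169) and 137 to 184 CPM in the old CR libraries (median 161). Its fold change with age was 1.10 (95% interval 0.80 to 1.52-fold, adjusted p = 0.765 in edgeR). All old AL libraries lay within the range of young AL. rno-miR-106b-3p, from the hairpin of rno-miR-106b-5p, was at 21.1 to 39.0 CPM in the young AL libraries, 24.8 to 42.9 CPM in the old AL libraries and 26.9 to 42.9 CPM in the old CR libraries, with a fold change with age of 1.15 (95% interval 0.83 to 1.59-fold, adjusted p = 0.651 in edgeR).

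The miR-19 pair had, with rno-miR-18a-5p, the largest coefficients of variation of the 10 in each group, at 58.4% to 86.2% for rno-miR-19a-3p and 32.2% to 45.2% for rno-miR-19b-3p. rno-miR-19a-3p was at 0.364 to 1.96 CPM in the young AL libraries (median 0.954), 0.403 to 2.23 CPM in the old AL libraries (median 0.551) and 0.382 to 1.78 CPM in the old CR libraries (median 0.754). Its log2 fold change with age was -0.49 ± 0.50 SE (adjusted p = 0.638 in edgeR), and old AL replicate 8, the library highest in rno-miR-142-5p, stood alone at the top of its group. Without that library the estimate was -1.06 ± 0.40 SE with an adjusted p of 0.161. rno-miR-19b-3p was at 2.28 to 6.77 CPM in the young AL libraries, 2.63 to 6.42 CPM in the old AL libraries and 2.35 to 7.08 CPM in the old CR libraries, and its log2 fold change with age was 0.10 ± 0.29 SE (adjusted p = 0.913 in edgeR), and -0.05 without old AL replicate 8.

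**Figure D2:**
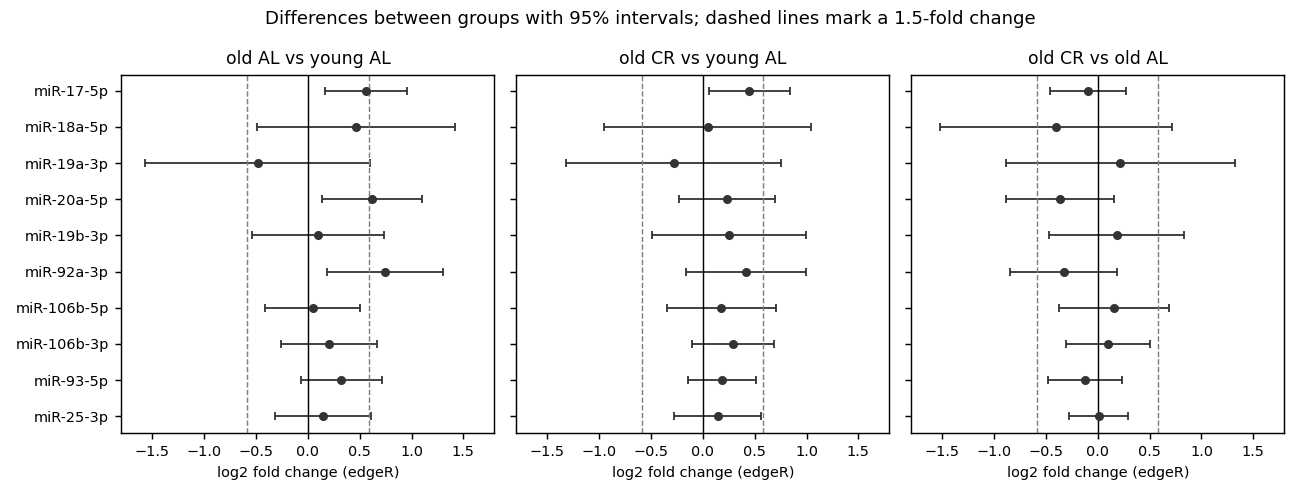
Log2 fold change (edgeR) of each cluster miRNA in the 3 comparisons, with points for estimates and bars for 95% intervals. Intervals of miR-17-5p, miR-20a-5p and miR-92a-3p lie above 0 in old AL against young AL, and that of miR-17-5p also in old CR against young AL, before adjustment for the number of entries tested.

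The second comparison set old CR against young AL. Again none of the 10 members was called by edgeR, 1 of 10 had an unadjusted p under 0.05, beside 186 of 730 entries in all, and DESeq2 called none. Over all entries edgeR called 68 of 730, 9.32%, and DESeq2 109 of 673, 16.2%. The estimates of 9 of 10 members were above 0, beside 407 of 730 entries in all, with a median log2 fold change of 0.21 against 0.07 over all entries. rno-miR-17-5p had a fold change of 1.37 (95% interval 1.04 to 1.79-fold, adjusted p = 0.137 in edgeR), with 4 of 6 old CR libraries above every young AL library. DESeq2 gave it an adjusted p of 0.0417 and a fold change of 1.36, under the threshold. The fold change of rno-miR-92a-3p was 1.33 (95% interval 0.89 to 1.99-fold, adjusted p = 0.382 in edgeR), and that of rno-miR-20a-5p was 1.18 (95% interval 0.85 to 1.62-fold, adjusted p = 0.568 in edgeR). The 4 members of miR-106b~25 had log2 fold changes of 0.14 to 0.29, with a lowest adjusted p of 0.359.

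The third comparison, old CR against old AL, asked what differed with diet at the same age. No member was called by edgeR, none had an unadjusted p under 0.05, beside 88 of 736 entries in all, and DESeq2 called none. Over all entries edgeR called 2 of 736, 0.272%, and DESeq2 19 of 479, 3.97%. The estimates split evenly, 5 above and 5 below 0, with a median of -0.04 against 0.01 over all entries. rno-miR-20a-5p had the lowest adjusted p of the 10, at a log2 fold change of -0.37 ± 0.24 SE (0.54 to 1.12-fold, adjusted p = 0.557 in edgeR). The estimate for rno-miR-92a-3p was -0.33 ± 0.24 SE (0.56 to 1.14-fold, adjusted p = 0.602), and 3 of 6 old CR libraries lay below every old AL library while the other 3 did not. rno-miR-17-5p was at -0.10 (0.73 to 1.21-fold, adjusted p = 0.897) and rno-miR-25-3p at 0.01 (0.83 to 1.22-fold, adjusted p = 0.998). With library totals these were -0.32 ± 0.26 SE and -0.20 ± 0.27 SE. The estimates for rno-miR-19a-3p, rno-miR-19b-3p, rno-miR-106b-5p, rno-miR-106b-3p and rno-miR-25-3p were above 0 with TMM factors and below 0 with library totals alone. The 3 comparisons share samples, since each group enters 2 of them, so the estimates of a member with age and with diet are not independent. Set side by side, the log2 fold changes in old AL and old CR against young AL were 0.56 and 0.45 for rno-miR-17-5p, 0.62 and 0.23 for rno-miR-20a-5p, 0.74 and 0.41 for rno-miR-92a-3p, 0.32 and 0.18 for rno-miR-93-5p, and 0.46 and 0.05 for rno-miR-18a-5p. They were 0.14 and 0.14 for rno-miR-25-3p, 0.10 and 0.25 for rno-miR-19b-3p, 0.05 and 0.18 for rno-miR-106b-5p, 0.20 and 0.29 for rno-miR-106b-3p, and -0.49 and -0.28 for rno-miR-19a-3p, so that the value in old CR was not the lower one throughout.

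Ratios of 2 members within a library need no scaling between libraries and were compared by exact two-sided permutation tests of the mean log2 ratio, with p adjusted over 12 tests. The ratio of both arms of the miR-106b hairpin, rno-miR-106b-5p to rno-miR-106b-3p, had a median of 0.289 over the young AL libraries, 0.263 over the old AL libraries and 0.296 over the old CR libraries, and ran from 0.117 to 0.580 over the libraries, so that the 3p arm was counted more often than the 5p arm in every library. The ratio of the first to the last member of miR-17~92, rno-miR-17-5p to rno-miR-92a-3p, had medians of 0.162, 0.124 and 0.159 in young AL, old AL and old CR, and that of rno-miR-25-3p to rno-miR-93-5p medians of 5.16, 4.86 and 5.50. None of these comparisons passed the threshold (adjusted p of 0.754 to 0.981 in the exact permutation tests). The ratio of rno-miR-17-5p to rno-miR-20a-5p, which share a seed, was 0.391 to 0.561 in the young AL libraries (median 0.452), 0.369 to 0.576 in the old AL libraries (median 0.448) and 0.470 to 0.646 in the old CR libraries (median 0.543). The ratio was 1.18-fold that of young AL in old CR (exact permutation p = 0.0433, adjusted p = 0.428) and 1.197-fold that of old AL (exact permutation p = 0.0714, adjusted p = 0.428), and neither passed the correction.

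**Figure D3:**
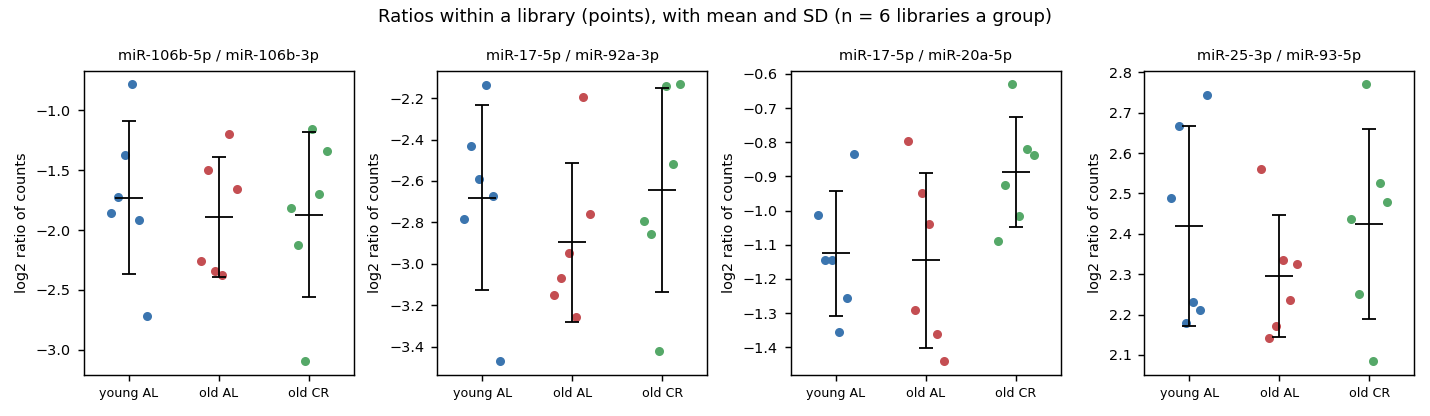
Log2 ratio of the counts of 2 members within each library. Points are libraries, 6 per group, with the mean and SD, and the log2 axes do not start at 0. The groups overlap in all 4 ratios, and the old CR points of miR-17-5p to miR-20a-5p are the highest on average.

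Across libraries, pairs within miR-106b~25 were closer by median than pairs between the clusters, and pairs within miR-17~92 were not. Likeness was measured as the root-mean-square distance between log2 CPM profiles over the 18 libraries, each centred on its own mean, which is a description that also holds what libraries share in depth and preparation. The closest pair, at 0.181, was rno-miR-17-5p and rno-miR-93-5p, which have the same seed but lie in different clusters. The next were rno-miR-93-5p with rno-miR-25-3p at 0.206 and rno-miR-17-5p with rno-miR-20a-5p at 0.220. The median distance was 0.642 over the 15 pairs within miR-17~92, 0.323 over the 6 pairs within miR-106b~25 and 0.543 over the 24 pairs between them. Without rno-miR-18a-5p, the member with the fewest counts, the medians were 0.540, 0.323 and 0.431. These distances also grow with the spread of each member, and rno-miR-19a-3p, with 19 to 186 counts per library, stayed in. Both arms of the miR-106b hairpin were 0.566 apart, and the farthest pair was rno-miR-19a-3p with rno-miR-92a-3p at 1.19, both members of miR-17~92.

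The G+C content of the mature sequences ran from 34.8% in rno-miR-19a-3p and 39.1% in rno-miR-19b-3p and rno-miR-20a-5p to 57.1% in rno-miR-92a-3p and 63.6% in rno-miR-106b-3p. Libraries with high rno-miR-19a-3p and rno-miR-19b-3p and low rno-miR-92a-3p and rno-miR-106b-3p were found in more than one group. In young AL replicate 4, rno-miR-19a-3p was at 1.96 CPM and rno-miR-92a-3p at 42.9 CPM, and in old CR replicate 16 they were at 1.42 and 78.3 CPM, whereas in old CR replicate 15 they were at 0.382 and 142 CPM. Other libraries did not show this opposition. Both were high in old AL replicate 8, at 2.23 and 167 CPM, and both were low in old CR replicate 17, at 0.557 and 80.8 CPM. The part of base composition or of library preparation in these profiles was not tested.

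**Figure D4:**
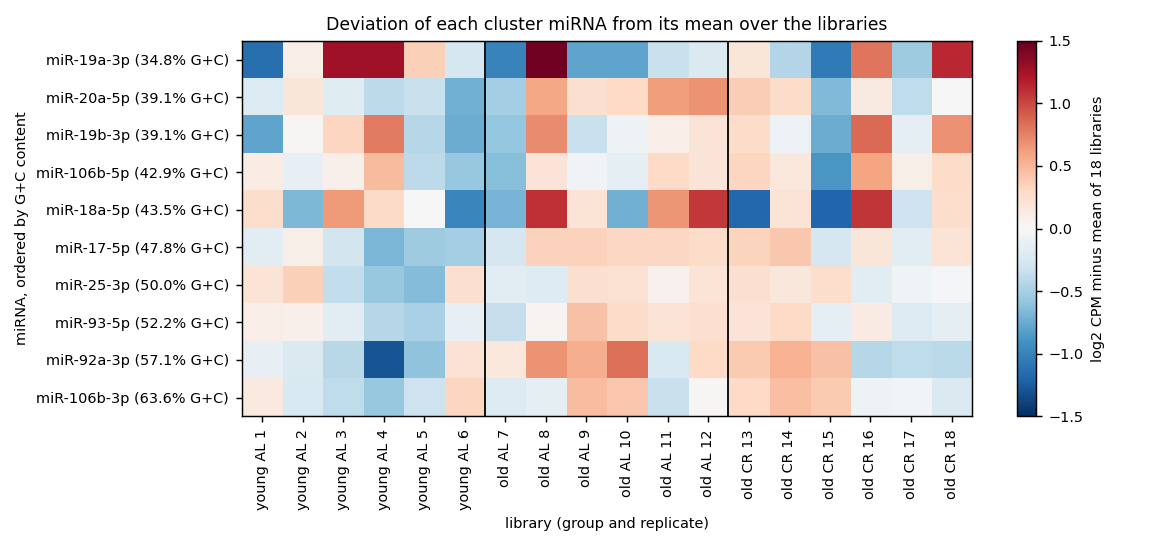
Deviation of each cluster miRNA in each library from its mean over the 18 libraries, in log2 CPM, with rows ordered by G+C content of the mature sequence and columns by group and replicate. Red is above and blue below the mean, and colours saturate at the ends of the scale. The rows of miR-19a-3p and miR-92a-3p differ most, as in young AL 4.

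Among 164 known miRNAs outside the clusters with a mean of at least 10 CPM, the profiles nearest to the mean profile of miR-17~92 were those of rno-miR-21-5p (distance 0.235), rno-let-7i-5p (0.241), rno-miR-7a-5p (0.250), rno-miR-148b-3p (0.256) and rno-miR-374-5p (0.263), where the median candidate was at 0.509. The nearest to miR-106b~25 were rno-miR-26a-5p (0.139), rno-miR-191a-5p (0.162), rno-miR-196a-5p (0.167), rno-miR-3068-3p (0.178) and rno-miR-30a-3p (0.181), with a median candidate at 0.388. Each mean profile gave its members equal weight, so that the scarce rno-miR-18a-5p and rno-miR-19a-3p counted as much as rno-miR-92a-3p. How far the members lie from that mean was not computed.

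Of the other arms of the same hairpins, all 9 in a list were in the table, and 7, 6 and 7 of them passed the filter on low counts in the 3 comparisons. edgeR called none in any comparison, with 1, 0 and 0 at an unadjusted p under 0.05, and neither did DESeq2. These arms were rare beside the members. The most abundant, rno-miR-25-5p, had group means of 0.885 ± 0.436, 0.928 ± 0.516 and 0.936 ± 0.274 CPM (SD, n = 6) in young AL, old AL and old CR, and rno-miR-93-3p 0.455 ± 0.158, 0.629 ± 0.136 and 0.497 ± 0.148 CPM.

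The paralogous miR-106a cluster on chromosome X and further miRNAs with a seed of the members formed a list of 11, of which 8 were in the table and 5 passed the filter in each comparison. These relatives were scarce in muscle: rno-miR-363-3p had a median of 1.41 CPM over the 18 libraries, rno-miR-92b-3p 0.561 CPM, rno-miR-32-5p 0.559 CPM and rno-miR-20b-5p 0.367 CPM. rno-miR-363-3p was highest in the 2 libraries that were highest in rno-miR-142-5p, at 7.98 CPM in old AL replicate 8 and 4.58 CPM in old CR replicate 18, against at most 3.21 CPM in the other 16. Only rno-miR-92b-3p was called by edgeR, and only in old CR against young AL. It has the seed of rno-miR-92a-3p and rno-miR-25-3p but comes from a gene of its own on chromosome 2.
rno-miR-92b-3p: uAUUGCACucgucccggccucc
rno-miR-363-3p: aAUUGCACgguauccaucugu

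rno-miR-92b-3p was at 0.286 to 0.506 CPM in the young AL libraries (median 0.392), 0.304 to 0.852 CPM in the old AL libraries (median 0.653) and 0.527 to 2.88 CPM in the old CR libraries (median 0.833). All 6 old CR libraries were above all young AL libraries, and replicate 17 was far above the others of its group. The share of all entries with separate ranges was not computed. The fold change was 2.71 (log2 1.44 ± 0.40 SE, 95% interval 1.49 to 4.94-fold, adjusted p = 0.0376 in edgeR and 0.00781 in DESeq2), in a comparison where 9.32% of entries were called. Only 11 to 35 counts per library lay behind it in young AL. The log2 fold change was 0.94 without old CR replicate 17 (adjusted p = 0.0489). The call was lost without any 1 of young AL replicates 1 to 6 or of old CR replicates 15 and 18, with a log2 fold change of 1.36 to 1.55 and an adjusted p of 0.0537 to 0.0767, and with library totals in place of TMM (log2 fold change 1.47, adjusted p = 0.0957). Leaving out young AL replicates 1 and 2 together also lost the call (log2 fold change 1.55, adjusted p = 0.117 in edgeR). In old AL against young AL the log2 fold change of rno-miR-92b-3p was 0.67 ± 0.25 SE (adjusted p = 0.146), and in old CR against old AL 0.78 ± 0.41 SE (adjusted p = 0.440), both in edgeR.

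Some miRNAs of other cells also differed between the groups, with values as follows, and their part in the results above was not tested. Liver rno-miR-122-5p was 0.549 to 39.1 CPM in the young AL libraries, 49.2 to 769.5 CPM in the old AL libraries and 101 to 185 CPM in the old CR libraries, and was called in old CR against young AL (adjusted p = 0.0329 in edgeR). In old AL against young AL its adjusted p was 0.071 in edgeR and 1.11e-05 in DESeq2, which called it. The 3 erythroid miRNAs summed to 3.41 to 9.74 CPM in the young AL, 6.69 to 11.8 CPM in the old AL and 3.47 to 9.46 CPM in the old CR libraries. Of these rno-miR-144-5p had a log2 fold change with age of 0.84 (adjusted p = 0.0879 in edgeR and 0.0113 in DESeq2, which called it). rno-miR-451-5p and rno-miR-144-3p had 0.25 and -0.36 in edgeR, and neither tool called them. The 5 leukocyte miRNAs summed to 123 to 169.9 CPM in the young AL, 109 to 606 CPM in the old AL and 114 to 238 CPM in the old CR libraries, with the highest values in old AL replicate 8 and old CR replicate 18. Most of that sum was rno-miR-150-5p, and in old AL against young AL all 5 estimates were above 0, with a median log2 fold change of 1.16 and 2 of 5 at an unadjusted p under 0.05. rno-miR-142-5p was at 4.09 to 8.82 CPM in the young AL libraries and 8.31 to 139 CPM in the old AL libraries (log2 fold change 2.25 ± 0.74 SE, adjusted p = 0.113 in edgeR), with 5 of 6 old AL libraries above every young AL library. None of the 6 striated muscle, 5 leukocyte, 2 endothelial or 3 fibroblast miRNAs was called by edgeR in any comparison.

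One predicted candidate had nearly the counts of rno-miR-20a-5p in the only 3 libraries where it was counted, at 1473 against 1483 in young AL replicate 1, 1073 against 1082 in young AL replicate 4 and 2272 against 2280 in old AL replicate 11. It was at 0 in the other 15. Another was within 10% of both rno-miR-106b-3p and rno-miR-93-5p in the only 2 libraries where it was counted, old AL replicates 9 and 12, at 2566 and 2015 counts.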

How the data were processed

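Total RNA of gastrocnemius muscle from 18 rats was made into small RNA libraries with the NEBNext kit. The authors trimmed reads with cutadapt (1.2.1 in the submitters' processing notes) and Sickle, dropped those under 12 nt and identified miRNAs with miRDeep2. The notes also name Bowtie2 2.4.0 and the build Rnor_6.0. The deposited values are raw counts per miRNA and library, not normalized, and all 18 columns were mapped from the labels (0 columns unused). No coordinates are given, since the sequences come from the RefSeq tables of GRCr8, which hold all 10 members and 686 of 909 entries.

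Counts were normalized by TMM and tested with edgeR 4.0.16 (R 4.3.3; quasi-likelihood, robust) on the 12 libraries of each pair of groups, over entries with at least 10 counts in total. An entry was called where the adjusted p did not exceed 0.05 and the groups differed by 1.5-fold or more, as in the paper. DESeq2 1.42.0 was the alternative. A prior count of 0.5 was added in log2 values. Ratios were tested with scipy 1.17.1 over all 924 arrangements. p-values judge a difference between groups against the spread between the libraries of a group. That spread holds differences between rats and in preparation, and edgeR also draws on the spread of all entries tested. Members, lists, tests and named miRNAs (the 10 members, their other arms, seed relatives, entries of like counts, nearest profiles and cell type miRNAs) were chosen with earlier results of these data known. The alternatives were other scalings, filters, DESeq2 settings, known miRNAs only, a single fit over 3 groups, each library left out, young AL replicates 1 and 2 left out, and, chosen after seeing the data, old AL replicate 8 and old CR replicate 18 left out. RT-qPCR and cell culture of the study were not analysed here.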

Additional observations from a re-analysis of the deposited data

Results flagged for a closer look

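Libraries far from the others of their group were found by the gap of the highest or lowest of 6 libraries to its neighbour, divided by the range of the group, with a limit of 0.625. Over 51 groups of values 4 passed, where chance gives about 1 in 20. The values were on the TMM scale, and old AL replicate 7 had the highest TMM factor, 2.08. In old AL replicate 7, rno-miR-17-5p was the lowest of its group at 13.25 CPM and rno-miR-20a-5p the lowest at 22.99 CPM, with gaps of 0.895 and 0.634 of the range. In old AL replicate 8, rno-miR-19a-3p was the highest at 2.231 CPM (gap 0.682). In old CR replicate 15, rno-miR-106b-5p was the lowest at 4.799 CPM (gap 0.653).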

How the results depend on the processing

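With age under ad libitum feeding, 0 members were called in edgeR, 2 in DESeq2 with its defaults, 2 in DESeq2 without the Cook and independent filters, and 0 to 2 with each library left out (2 without old AL replicate 7, where 20 of 725 entries were called). In the other comparisons 0 members were called throughout. The cause of the difference between the tools was not tested. Over all entries, old AL against young AL gave 24 calls, 0 with library totals, 37 with filterByExpr, 38 in a single fit over 3 groups, 53 over known miRNAs only, 84 with DESeq2 defaults and 99 without its filters; old CR against young AL 68, and 109 and 129 with DESeq2; old CR against old AL 2, 19 and 22 with DESeq2, and 0 with upper-quartile factors, library totals, known miRNAs only or no robust estimation. Library totals moved the median log2 fold change of all entries by 0.16, -0.13 and -0.27 in the 3 comparisons, and upper-quartile factors by -0.11 in old CR against old AL.

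The log2 estimates that turned direction were of members not called in any setting. In old AL against young AL, rno-miR-19b-3p was at -0.0215 without young AL replicates 1 and 2, and rno-miR-106b-5p at -0.0211 with filterByExpr. In old CR against young AL, rno-miR-18a-5p was at -0.0912 with upper-quartile factors, -0.0767 with library totals, -0.0202 with no filter and -0.0023 without young AL replicates 1 and 2. In old CR against old AL, library totals gave -0.0777 for rno-miR-19a-3p, -0.0624 for rno-miR-19b-3p, -0.0547 for rno-miR-106b-5p, -0.15 for rno-miR-106b-3p and -0.20 for rno-miR-25-3p, and upper-quartile factors -0.0059 for rno-miR-106b-3p and -0.10 for rno-miR-25-3p. rno-miR-25-3p was also at -0.0189 with TMM without the miR-1 family, with filterByExpr (-0.0190) and without old AL replicate 8 and old CR replicate 18 (-0.0207). With each library left out, values crossed 0 for rno-miR-19b-3p (-0.0529 to 0.30) and rno-miR-106b-5p (-0.0384 to 0.15) in old AL against young AL, for rno-miR-18a-5p (-0.31 to 0.21) in old CR against young AL, and for rno-miR-19a-3p (-0.0623 to 0.82) and rno-miR-25-3p (-0.0484 to 0.0469) in old CR against old AL.

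The log2 ratio of rno-miR-17-5p to rno-miR-20a-5p, old AL against young AL, was 0.0009 without young AL replicates 1 and 2 and -0.0914 to 0.0376 with each library left out. That of rno-miR-106b-5p to rno-miR-106b-3p was -0.36 to 0.0294, -0.34 to 0.10 and -0.13 to 0.26 in the 3 comparisons, that of rno-miR-17-5p to rno-miR-92a-3p -0.12 to 0.19 and that of rno-miR-25-3p to rno-miR-93-5p -0.0647 to 0.0724, both in old CR against young AL. No ratio passed the threshold in any setting. No paired analysis was possible because the replicate numbers 1 to 18 do not recur between groups. Depth limits rno-miR-18a-5p, with 2 to 18 counts per library.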
